A study of Mus musculus with 2 samples.

Results

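The genes described here form the Wnt module, meaning the Wnt ligands, the proteins that secrete them, their receptors and co-receptors, the R-spondins, the secreted antagonists, and the effectors that carry the signal to the nucleus. The rule that picks the members reads gene symbols and no signal, although the module was proposed with results of these data known. A probe set (a group of short oligonucleotides read together against a transcript) was used if it named a single gene. There were 124 such probe sets for 60 genes, out of 45037 probe sets and 18193 genes on the array. Of the 61 genes that the rule names in the mouse annotation, Tcf7 had no probe set naming it alone and was not analysed here.

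Signals come from 2 Affymetrix mouse arrays hybridised with RNA of CH cells, from 1 pool of animals for each array. The labels, which call the cells PlCH, give for both pools the peripheral blood of 15 healthy adult C57bl/6 mice, male and female, at 7 months of age, with 50 µg of total RNA labelled, whereas the paper's methods give younger animals, smaller pools and, for the RNA, a number of CH cells in place of a mass. The cells were sorted from lysed blood as small, viable, DNA-containing events without CD45 and without the antigens of mature blood lineages, so an array reports a pool of animals and a gate rather than a single cell type. In such a pool, fewer cells of a type and less RNA per cell cannot be told apart. There is 1 group and no control, and each comparison below is with a fixed limit, with background probe sets, or between the arrays.

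Wnt proteins are secreted, lipid-modified glycoproteins. In the canonical branch they bind Frizzled and an Lrp co-receptor, Dishevelled is recruited, the complex of Axin, Apc and glycogen synthase kinase that marks beta-catenin for destruction is inhibited, and beta-catenin enters the nucleus to act with TCF/LEF factors. Other branches use Frizzled with Ror or Ryk receptors and do not require beta-catenin. The pathway is best known for axis and primitive streak formation in the embryo and for the upkeep of stem cells in the gut, skin and bone.

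Signals are given as deposited, on the log2 scale, and the level of a gene is the mean over both arrays of the probe set with the highest mean, ± SD with n = 2 arrays throughout. A gene counted as above the limit if any probe set exceeded 5 on both arrays. The value is that of the study's filter before clustering, but the rule differs. The study dropped genes that stayed below 5 in every sample of its joint dataset, whereas here the CH cell arrays alone decide. Each mean was also set against 5 with limma, with Benjamini-Hochberg adjustment over all probe sets. Because probe sets differ in affinity, the order of signals does not rank transcripts by abundance. Receptors of smell, taste and pheromones, taken as background, passed the limit in 13 of 76 genes. Probe set means in this background ran from a median of 4.06 through a 95th percentile of 6.04 to a maximum of 6.92, for Vmn1r44. A member between 5 and 6.92 is therefore within the range that background probe sets reached. Of the 76 background genes, 70 had a single probe set, whereas 39 of the 60 members had several. Taking the highest of several favours the members in this comparison.

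The arrays had medians of 5.54 and 5.52 and correlated with Pearson's r = 0.997 over all probe sets (a correlation across probe sets and not across samples). Of the markers of cell types that the sort could hold, mesenchymal genes (6 of 6, median 11.82), pluripotency genes (5 of 5, median 9.49) and epithelial genes (4 of 4, from 9.10 to 11.87) were above the limit. Over all genes, 71.2% were above it and the median was 6.84. Platelet genes (4 of 4 above, median 6.70) and leukocyte genes (4 of 7, median 5.59) had medians under that value. Only 1 platelet gene and 0 leukocyte genes exceeded the highest background receptor on both arrays. Ptprc, which encodes CD45, read 4.95 and 5.24. Erythroid genes (0 of 3 by the call and by limma, median 4.62) and endothelial genes (1 of 4, or 0 of 4 by limma, median 4.45) were mostly below. Counts cover genes with a probe set naming them alone, as 7 of 10 listed leukocyte and 3 of 5 listed erythroid genes had. The part that any of these cell types had in the levels below was not tested.

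Of the 60 members, 48 were above 5 on both arrays, where 71.2% of all genes were. The median level of the members was 6.85 and that of all genes 6.84, so the module as a whole sat at the middle of the array. With limma at an adjusted p under 0.05, 45 members were above the limit against 69.1% of all genes, 9 were below it and 6 were on neither side. Above the 95th percentile of the background receptors there were 35 members, against 57.3% of all genes, and above the highest of them 26, against 48.3%. The classes differed in their counts. All 8 cytoplasmic effectors, all 14 receptors and co-receptors and all 3 TCF/LEF factors were above 5, as were 11 of 19 Wnt ligands, 8 of 10 secreted antagonists and 2 of 4 R-spondins. These counts describe the arrays, and no class was tested against another.

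**Figure D1:**
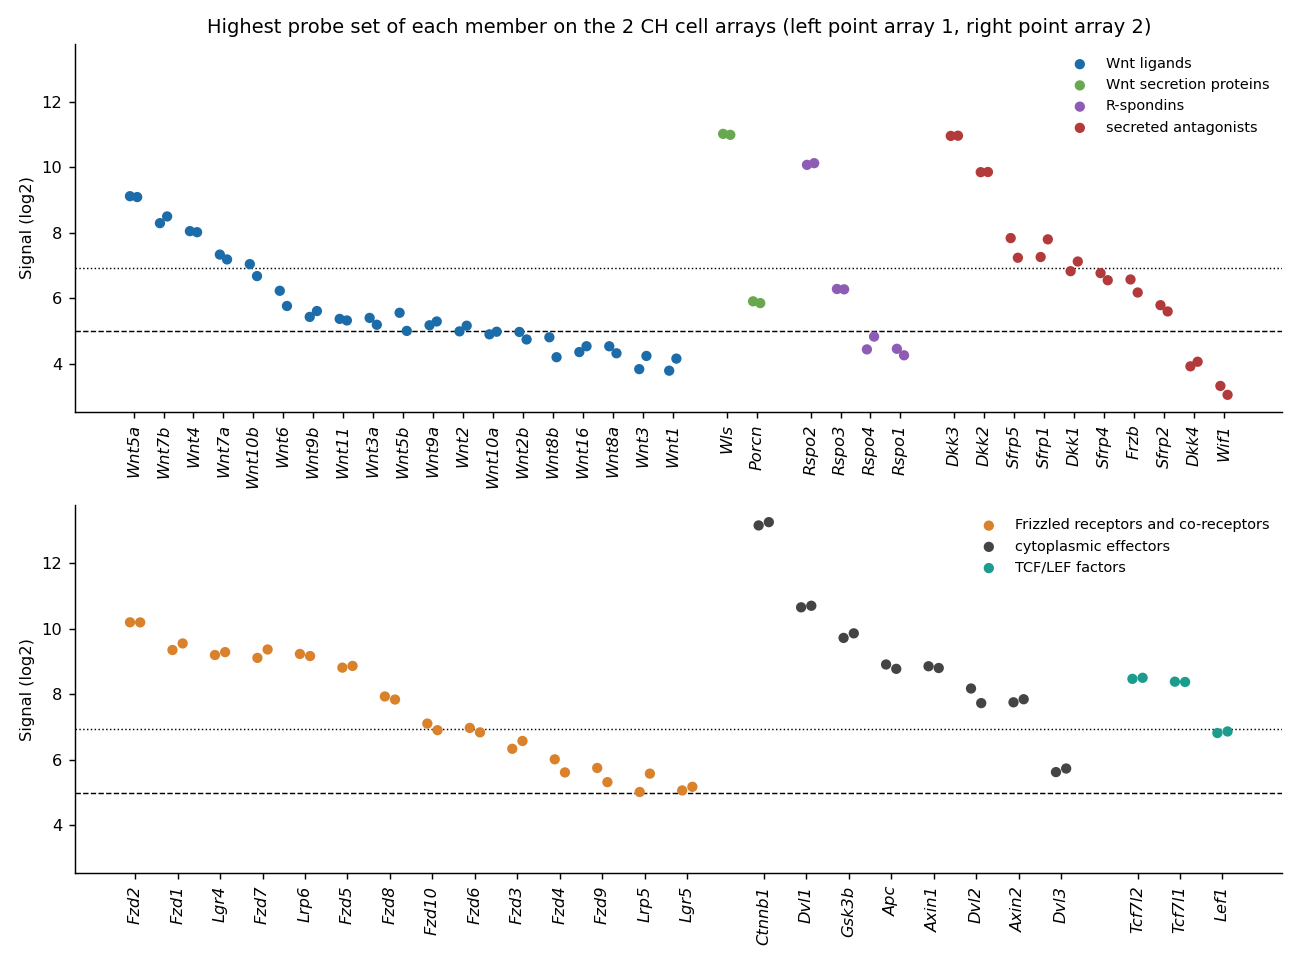
Log2 signal of the highest probe set of each of the 60 members, with the left point for array 1 and the right point for array 2, coloured by class. A dashed line is drawn at 5 and a dotted one at 6.92, the highest background receptor. Ctnnb1 lies near 13.20 and Wif1 near 3.19, and the Wnt ligands spread from 9.10 down to 3.98.

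Among the ligands, 4 lay above the whole range of the background receptors. Wnt5a, the prototype ligand of beta-catenin-independent signalling, read 9.12 and 9.09 on arrays 1 and 2, a mean of 9.10 ± 0.019. Wnt7b, a ligand of lung, kidney and bone development, read 8.29 and 8.50. Wnt4, a ligand of kidney and gonad development, read 8.05 and 8.02. Wnt7a, known from limb and brain patterning, read 7.33 and 7.19. This holds for the highest probe set of each, as the others of Wnt7a were at 5.25 and 4.37, that of Wnt7b at 6.48 and that of Wnt4 at 5.86. The arrays were close for each of these 4 genes, and the adjusted p of limma against 5 was at most 2.87e-06.

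Wnt10b, a ligand linked to bone formation, read 7.04 and 6.68, on either side of the highest background receptor. Wnt6 read 6.23 and 5.77, so that array 1 alone exceeded the 95th percentile of background. Wnt9b read 5.43 and 5.61, with its other probe set below 5 at 4.62. Wnt11 and Wnt3a were called above 5 at levels of 5.35 and 5.30, inside the background range like Wnt9b. Nearest above the limit was Wnt9a, with 5.18 and 5.29 (adjusted p = 0.027 with limma). Wnt5b read 5.56 and 5.01 and did not pass limma (adjusted p = 0.11), although both values exceeded 5.

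The other 8 ligands were not called. Wnt2 lay on both sides of the limit, with 4.99 and 5.16, and is the sole member added when array 2 is used alone. Wnt10a, nearest below it by mean, read 4.90 and 4.98, and Wnt2b read 4.97 and 4.75. Wnt8b (4.51), Wnt16 (4.45), Wnt8a (4.43), Wnt3 (4.04) and Wnt1 (3.98) were below 5 with limma as well, with adjusted p from 3.19e-04 to 0.026. Wnt1 and Wnt3 activate beta-catenin in their classical assays, and Wnt3 is required for the primitive streak of the mouse embryo. Each was read by a single probe set, at 3.79 and 4.16 for Wnt1 and at 3.84 and 4.24 for Wnt3.

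In the annotation of GRCm38.p6, 4 pairs of Wnt genes are direct neighbours with no protein-coding gene between them, and the calls differed within most of these pairs. Wnt10b was called and its neighbour Wnt1 was not. The same held for Wnt9b beside Wnt3, and for Wnt6 beside Wnt10a. The other probe sets of Wnt9b and Wnt6 were below 5, at 4.62 and 4.56. Wnt10a was on neither side of 5 with limma (adjusted p = 0.46). In the remaining pair both Wnt3a and Wnt9a were called, close to the limit. No called gene of these pairs exceeded the highest background receptor on both arrays.

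Wls, the carrier that takes Wnt proteins to the cell surface, read 11.02 and 10.99. Another probe set of Wls was at 10.68 and a further one at 8.38, while the last, at 3.49, was in the range of background. Porcn, the acyltransferase that attaches the lipid to Wnt proteins, read 5.91 and 5.85 with its single probe set (adjusted p = 9.69e-05 with limma), a level that background receptors also reached. Of the 2 genes needed for Wnt secretion, then, Wls alone was above the whole background range.

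R-spondins potentiate Wnt signalling by binding Lgr receptors and removing the ligases that take Frizzled from the membrane. Rspo2 read 10.07 and 10.12 with its highest probe set and 5.15 and 5.35 with the other. Rspo3 read 6.28 and 6.27, while its other probe set was at 4.56. Rspo4 (4.44 and 4.83) and Rspo1 (4.46 and 4.26) were below 5 on both arrays, with adjusted p of 0.025 and 7.7e-04 from limma. Both probe sets of Rspo2 were above the limit, but at means as far apart as 10.10 and 5.25.

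Frizzled proteins are the membrane-spanning receptors of Wnt ligands. Fzd2, with 3 probe sets above the limit, read 10.19 on both arrays, and the lowest of the 3 was at 9.12. Fzd1 read 9.35 and 9.55, and its other probe set was below 5 at 4.85. Fzd7, a receptor prominent in pluripotent cells, read 9.11 and 9.37 with 1 probe set and 6.39 and 6.15 with the other. These receptors and Fzd5 (8.81 and 8.86) stood above the background range with their highest probe set on both arrays.

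Fzd8 followed at 7.93 and 7.84, with its other probe set at 3.70. Fzd10 read 7.10 and 6.90 and Fzd6 read 6.97 and 6.84, so both were near the highest background receptor. Fzd3, a receptor of planar polarity, was read by 6 probe sets, of which 4 were above 5 and the highest read 6.33 and 6.57. Fzd4, known from vessel growth in the retina, read 6.01 and 5.61, and Fzd9 read 5.75 and 5.32. Every Frizzled on the array was thus called, 10 of 10, but 5 of them (Fzd3, Fzd4, Fzd6, Fzd9 and Fzd10) did not exceed the highest background receptor on both arrays.

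The co-receptors were split. Lrp6 read 9.23 and 9.16, and its other probe set was at 7.13. Its paralog Lrp5, linked to bone mass, read 5.02 and 5.58 with a single probe set and did not pass limma (adjusted p = 0.10). Lgr4, a receptor of R-spondins, read 9.20 and 9.28, although its other probe set was at 4.51. Lgr5, the R-spondin receptor known as a marker of intestinal stem cells, read 5.06 and 5.17 and 4.94 and 4.73 with its 2 probe sets (adjusted p = 0.18 for the higher), which leaves it at the limit.

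Secreted antagonists fall into Dkk proteins, which mostly bind Lrp co-receptors, and Sfrp proteins, Frzb and Wif1, which bind Wnt ligands. Dkk3, the divergent member of the Dkk family, read 10.96 on both arrays, and its other probe set was at 10.80. Dkk2, which can inhibit or activate depending on the co-receptor context, read 9.85 on both arrays. Dkk1, the classical inhibitor of Lrp6, read 6.83 and 7.12 with 1 probe set and 3.90 and 3.93 with the other. Dkk4 was below 5 at 3.93 and 4.07 (adjusted p = 7.67e-05 with limma). The call for Dkk1 thus rested on 1 of 2 probe sets, whereas both probe sets of Dkk3 were far above background.

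Sfrp1 was read by 5 probe sets, 4 of them above 5, and the highest read 7.26 and 7.80. Sfrp5 read 7.84 and 7.24, the opposite way, and its other probe set was at 6.03. Sfrp4 was at 6.66 ± 0.15 and Sfrp2 at 5.70 ± 0.14, each with a single probe set. Frzb, a relative of the Sfrp family first found in cartilage, read 6.58 and 6.18, with its other probe set at 4.25. Wif1, which binds Wnt ligands directly, had the lowest level of the module, with 3.33 and 3.06. Of the 4 Sfrp genes, Sfrp1 and Sfrp5 exceeded the highest background receptor on both arrays.

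The cytoplasmic effectors stood above the limit without exception. Ctnnb1, which encodes beta-catenin and also serves cell adhesion at cadherins, read 13.15 and 13.25, and its other probe sets were at 11.18 and 9.47. Dvl1, a Dishevelled protein, read 10.65 and 10.70. Gsk3b, the kinase that marks beta-catenin for destruction, read 9.72 and 9.86, and 5 of its 6 probe sets were above 5. Apc, the scaffold lost in intestinal tumours, read 8.91 and 8.77, with 3 of 4 probe sets above 5 and the lowest at 4.06. Except for Dvl3, these genes exceeded the highest background receptor on both arrays.

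Axin1, the limiting scaffold of the destruction complex, read 8.85 and 8.80, and its other probe set was at 6.72. Axin2, a scaffold that is also a widely used target gene of beta-catenin, read 7.75 and 7.85 with 1 probe set and 4.07 and 4.38 with the other. Dvl2 read 8.17 and 7.73, and Dvl3, with a single probe set, 5.62 and 5.73. The level of Axin2 was above the background range on both arrays, but rested on 1 of its 2 probe sets.

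TCF/LEF factors bind DNA and recruit beta-catenin. Tcf7l2, the factor of the intestinal epithelium also called Tcf4, read 8.47 and 8.50 and had 4 of 4 probe sets above 5. Tcf7l1, the factor also called Tcf3 that mostly represses in pluripotent cells, read 8.38 and 8.37, and its other probe set read 8.39 and 8.25. Lef1, typical of lymphocytes and hair follicles, read 6.82 and 6.86, just below the highest background receptor. The probe sets of Tcf7l1 lay closest together among the members with more than 1, at means of 8.38 and 8.32.

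**Figure D2:**
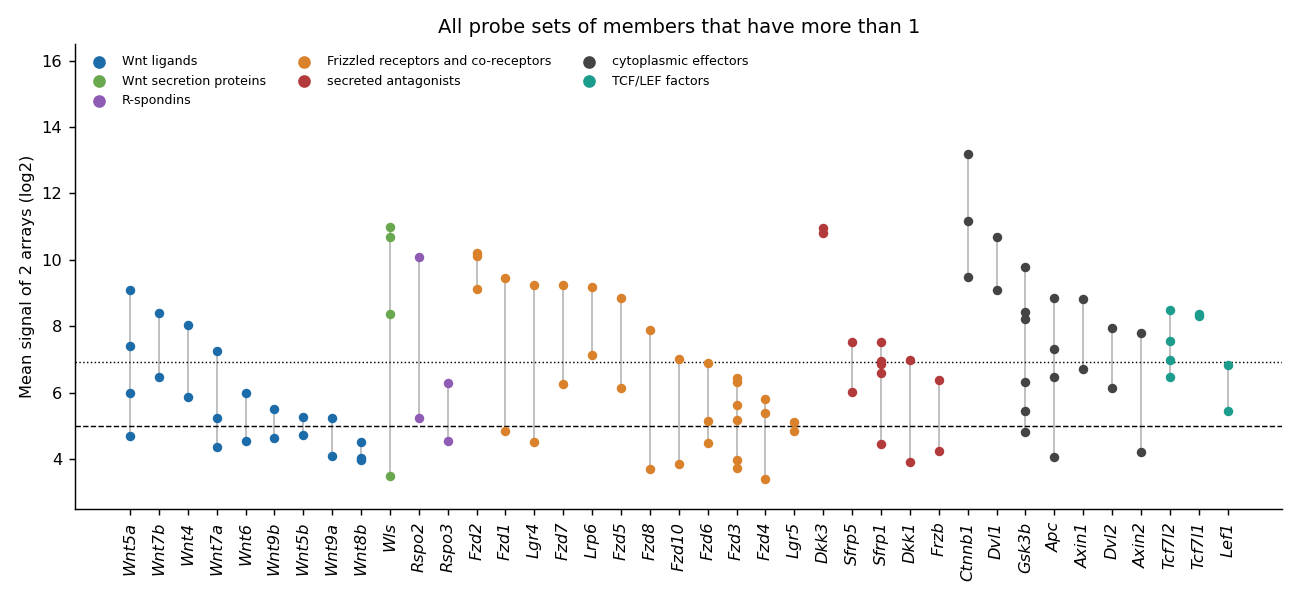
Mean log2 signal over both arrays of every probe set of the 39 members that have more than 1, with a grey line from the lowest to the highest, coloured by class. Dashed and dotted lines stand at 5 and 6.92. The lowest probe set of Wls lies at 3.49, and the probe sets of Dkk3 lie together near 10.88.

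Whether a member was called depended in many cases on a single probe set. Of the 39 members with several probe sets, 16 had every probe set above 5, 1 (Wnt8b) had none, and 22 had some above and some not. Among the 9010 genes of the array with several probe sets these shares were 44.0%, 14.0% and 42.0%. Among the 21 members with a single probe set, 10 were above the limit, where 56.7% of all genes with a single probe set were. Of the 124 member probe sets, 87 were above 5 on both arrays, where 64.8% of all probe sets naming 1 gene were. Wnt5a shows the range within a gene, with probe sets at 9.10, 7.42, 6.00 and 4.69. When the median of its probe sets, which for a pair is their average, stood for a gene in place of the highest, 45 members remained above 5 and Lgr5, Wnt5b and Wnt9a did not.

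The spread between the arrays was small beside the range of the module. Over all member probe sets the median of array 1 minus array 2 was 9.3e-04 and the SD 0.27, while the SD over all probe sets was 0.20. More than 2 of those SDs separated the arrays for 16 of the 124 member probe sets (12.9%) and for 5.38% of all probe sets. Signal below 7 was as frequent in the module as elsewhere, with 66.1% of member probe sets and 66.5% of all. Below 7 the SD was 0.30 for the members and 0.23 for all probe sets, and at or above 7 it was 0.18 and 0.14.

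The largest differences, for Lef1, Wnt5a and Gsk3b, were in probe sets other than the highest of the gene. That of Lef1 read 5.85 and 5.04, that of Wnt5a 5.61 and 6.40, and that of Gsk3b 4.43 and 5.21. Next came Wnt8b, with 4.81 and 4.20, and Sfrp5, with 7.84 and 7.24. Of the highest probe sets, 31 were higher on array 1 and 29 on array 2. No direction was therefore shared by the module, and with 1 array per pool a difference between the pools was not tested.

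**Figure D3:**
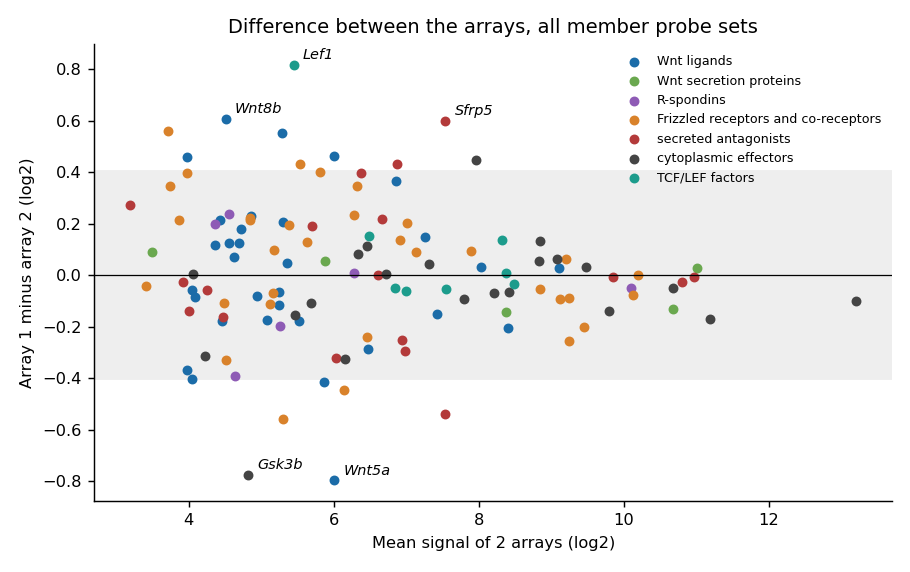
Array 1 minus array 2 (log2) of the 124 member probe sets against their mean signal over both arrays (log2), coloured by class. The grey band covers 2 SDs of the difference over all probe sets, and the 5 labelled probe sets have the largest differences, with Lef1 at 0.82 and Wnt5a at -0.80.

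Other genes of the pathway were read from lists outside the member rule, and their counts stand beside 71.2% of all genes above 5 and a median of 6.84. At the membrane and outside the cell, 11 of 16 genes (68.8%) were above 5, with a median of 6.38, so that both lay below the values of all genes. This list names 17 genes, and Kremen2 had no probe set matched to that symbol alone and was not read. Ryk, a Wnt receptor with a kinase-like domain, read 11.40 and 11.39. Gpc4 read 10.74 and 10.68 and Gpc3 10.41 and 10.48, both glypicans that bind Wnt proteins at the surface. The ligases that remove Frizzled differed, with Znrf3 at 7.66 ± 0.087 and Rnf43 below 5 at 4.11 ± 0.23. Of the Ror receptors of Wnt5a, Ror2 was at 6.12 ± 0.22 and Ror1 not above 5 at 4.69 ± 0.24. Dkkl1 (4.89), Sost (4.44) and Sostdc1 (4.12), secreted proteins, were not above the limit either.

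Of the further cytoplasmic regulators, 20 of 20 were above 5, with a median of 9.10. Csnk1a1, the kinase that primes beta-catenin, read 12.62 and 12.61. Fbxw11, a ubiquitin ligase subunit that recognises marked beta-catenin, read 12.55 and 12.59. Tnks2, a tankyrase that destabilises Axin, read 12.41 and 12.52. These values are of the highest probe set of each gene. The median over the probe sets of Csnk1a1, Fbxw11 and Tnks2 was 6.88, 7.18 and 9.20. Their lowest probe sets were at 4.36, 3.56 and 6.13.

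Of 16 nuclear cofactors of beta-catenin, 15 were above the limit and the median was 9.05. The corepressors Ctbp1 and Ctbp2 and the chromatin remodeller Chd8 were at 11.59 ± 0.12, 10.35 ± 0.015 and 9.76 ± 0.027. For Chd8, 2 of 4 probe sets were above 5, and their median was 5.44. Pygo1 was below 5 at 4.08 ± 0.24, while its paralog Pygo2, likewise an adaptor of beta-catenin, was at 9.43 ± 0.013. Of 12 planar polarity genes 10 (83.3%) were above 5, with a median of 7.26. Prickle2 (8.49 and 8.92), Daam1 (8.42 and 8.48) and Scrib (8.03 and 7.93) had the highest signals, and Celsr1 (4.37 and 5.04) and Celsr2 (4.88 and 5.11) lay on both sides of the limit.

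Of 17 genes known as targets of the pathway, 14 (82.4%) were above 5, against 71.2% of all genes, and their median was 7.46. The list names 18 targets, and T had no probe set matched to that symbol alone and was not read. Other names of T were not searched, so its absence from the array is not shown. Ccnd1, a cyclin of the G1 phase, read 13.18 and 13.14, Cd44, the hyaluronan receptor, 13.00 and 13.01, and Jun, a subunit of AP-1, 11.58 and 11.64. These genes answer to many other signals as well. Among targets regarded as more specific, Sp5 was at 8.32 ± 0.027, Nkd1 at 6.05 ± 0.045 and Notum at 5.96 ± 0.093. Nkd1 and Notum were inside the background range. For Nkd1, 2 of 4 probe sets were above 5, and the median over all 4 was 4.94. Axin2, a member of the module and not on this list, was at 7.80 ± 0.066. The other called targets, in falling order, were Myc (11.44), Fosl1, Apcdd1, Znrf3, Cdx2, Tnfrsf19, Mmp7 and Ascl2 (5.50). Cdx1 (4.83), Rnf43 (4.11) and Cdx4 (3.32) were not above 5.

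**Figure D4:**
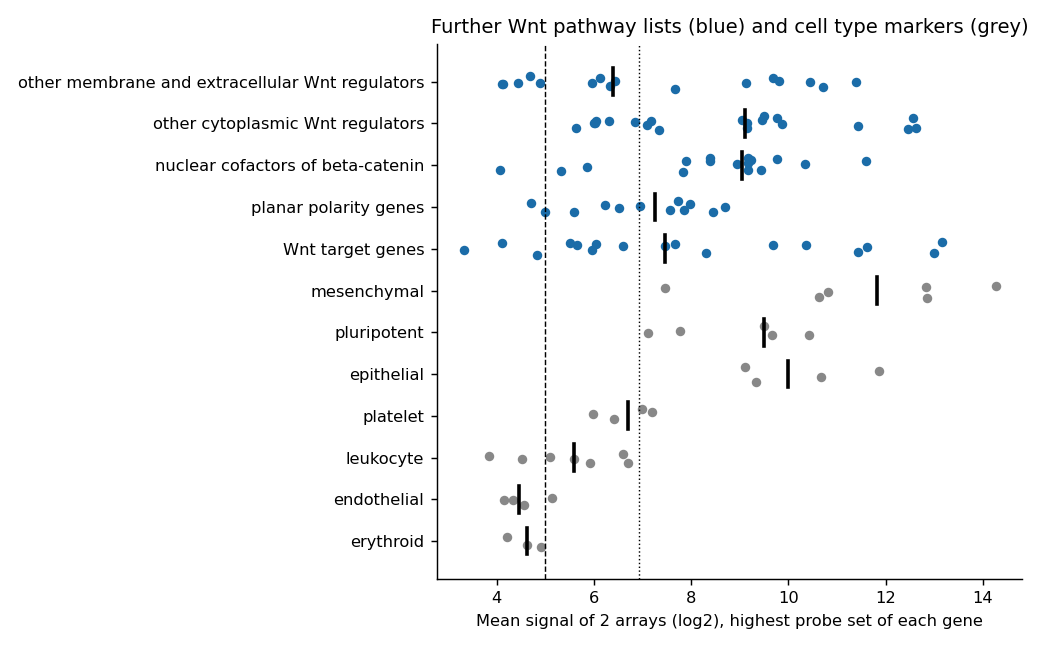
Mean log2 signal over both arrays of the highest probe set of each gene in 5 further Wnt pathway lists (blue) and 7 cell type marker lists (grey), with a black bar at the median of each list. Dashed and dotted lines stand at 5 and 6.92. The cytoplasmic list has its median at 9.10 and the endothelial markers at 4.45.

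As a property that the rule did not use, the promoter of each member was read from RefSeq (GRCm38.p6), in the 250 bases before the start of transcription. Where a gene had several annotated starts (5 members), the window with the most CpG was used for the CpG count and all windows for the motif search below. A window was found for 40 of the 60 members and for 14452 of all genes with a probe set. Mouse genes with CpG-poor promoters tend to be active in few tissues. Among all genes, those above 5 had a median of 16 CpG dinucleotides in the window and those not above it 5. Of the members, the 31 above 5 had a median of 24 and the 9 not above it a median of 22, from 5 for Wnt8b to 36 for Wnt2b. Members without a call thus had a median close to that of the called members, where the array as a whole showed a gap between called and uncalled genes. This is a description, and no test was made.

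The last 100 bases before the start are printed for a CpG-dense and a sparser window among ligands that were called (Wnt4 and Wnt10b, with 44 and 14 CpG in the whole window) and among those that were not (Wnt2b and Wnt1, with 36 and 23), with CpG dinucleotides in capitals. Wnt4 lies on the plus strand at chr4:137277535-137277634 and Wnt10b on the minus strand at chr15:98778151-98778250. Wnt2b lies on the minus strand at chr3:104961710-104961809 and Wnt1 on the plus strand at chr15:98789757-98789856. In this order the stretches hold 20, 6, 16 and 7 CpG. Not printed are the sparsest windows of uncalled ligands, those of Wnt16 with 9 and Wnt8b with 5 CpG.
Wnt4: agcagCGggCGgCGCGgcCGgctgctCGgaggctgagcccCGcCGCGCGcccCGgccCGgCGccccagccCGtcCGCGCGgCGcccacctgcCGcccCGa
Wnt10b: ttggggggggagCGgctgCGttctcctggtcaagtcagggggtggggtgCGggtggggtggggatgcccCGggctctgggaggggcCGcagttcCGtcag
Wnt2b: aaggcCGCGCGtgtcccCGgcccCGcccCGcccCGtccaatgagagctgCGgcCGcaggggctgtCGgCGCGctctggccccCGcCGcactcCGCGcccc
Wnt1: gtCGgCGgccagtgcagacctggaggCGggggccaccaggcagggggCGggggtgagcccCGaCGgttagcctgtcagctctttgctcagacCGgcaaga

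**Figure D5:**
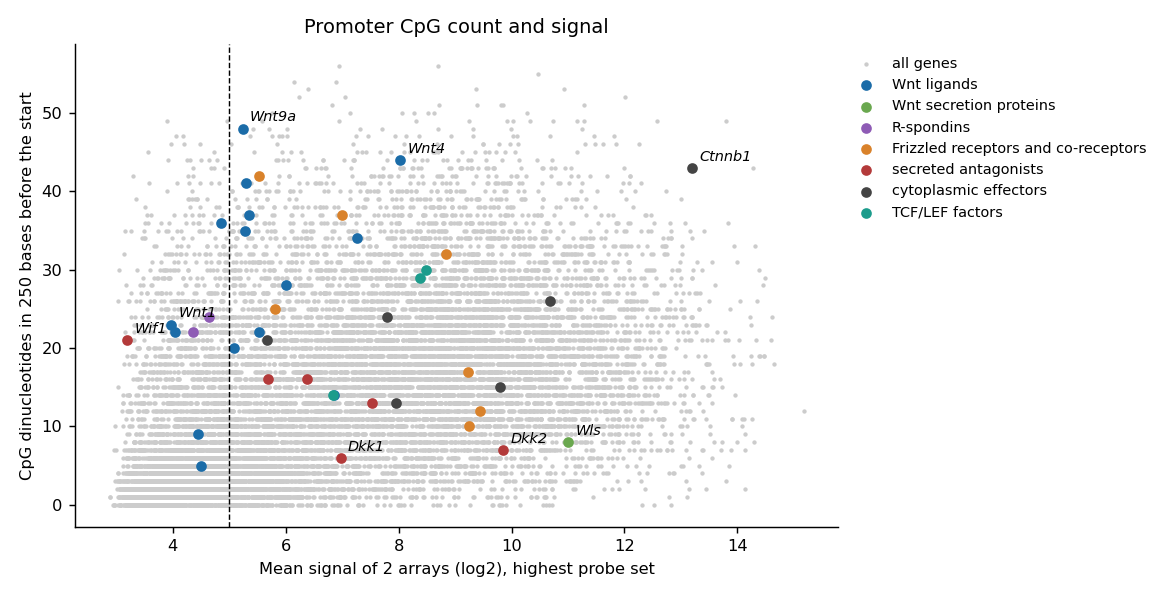
CpG dinucleotides in the 250 bases before the start of transcription against the mean log2 signal of the highest probe set over both arrays, for all 14452 genes with a window (grey) and the 40 members (coloured by class). The dashed line marks 5. Of the uncalled members, Wnt1 lies at 23, Wif1 at 21, Wnt16 at 9 and Wnt8b at 5 CpG, and the median of all uncalled genes is 5.

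The same windows were searched on both strands for the TCF/LEF motif in its 4 forms, which are CTTTGAA or CTTTGAT with A after the core and CTTTGTA or CTTTGTT with T after it. Matches on 1 strand cannot overlap each other. A match was present in 6 of the 40 members (15.0%), in 13.9% of all 14452 genes and in 14.8% of all promoter windows, so the share in the module was near that of the genome. The 6 genes were Dkk1, Fzd7, Lef1, Tcf7l2, Wnt5b and Wnt11. Of these, Lef1, Tcf7l2, Wnt5b and Wnt11 had several windows to match. Among the 35 members with 1 window a match was present in 2 (5.71%), against 11.7% of all genes with 1 window. Among the 5 members with several windows a match was present in 4 (80%), against 23.45% of all genes with several. All 6 were among the 31 called members, Wnt5b without passing limma. Over the array the motif was present in 12.6% of genes above 5 and 17.2% of the others. The 9 uncalled members, with 0 matches, are too few to set against these shares. The window of Axin2 held none of the 4 forms of the motif.

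Stretches of 50 bases are shown for an antagonist and a receptor among these genes, with the motif in capitals. That of Dkk1 lies on the minus strand at chr19:30549577-30549626 and has 2 matches, and that of Fzd7 lies on the plus strand at chr1:59481997-59482046, with the motif on the opposite strand.
Dkk1: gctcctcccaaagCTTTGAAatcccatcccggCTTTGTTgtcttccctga
Fzd7: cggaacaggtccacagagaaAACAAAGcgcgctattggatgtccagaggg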

How the data were processed

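The deposited values are log2 signals of probe sets on Affymetrix mouse genome arrays. In the study, CH cell arrays went through RMA and quantile normalisation jointly with arrays of 5 public series, but the sources used here do not say that the deposited log2 values stem from this step, and name no tool versions for it. The number of arrays limits the precision. For each probe set, p-values set the distance of its mean from 5 against a spread between these pools moderated over all probe sets.

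Of 45101 probe sets, 64 controls were removed. Of the others, 34945 named 1 gene in the platform annotation, 932 several (not used) and 9160 were not listed. Entrez identifiers matched 34741 of them to GRCm38.p6 and changed 0 symbols. With limma 3.58.1 in R 4.3.3 (tested on simulated data), each mean was set against 5 in an intercept fit with empirical Bayes moderation, two-sided, over 45037 probe sets. Python 3.11.15, numpy 2.4.6, pandas 2.3.3 and matplotlib 3.10.9 were used.

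Every member is named. Values by array are given for up to 4 members of each class with the highest mean, those nearest 5, those with probe sets on both sides of 5 and the 5 largest differences between arrays, and up to 3 genes are named from each other pathway list, with further genes chosen after their values were seen. Members and lists were chosen with earlier results of these data known. Alternatives were other limits, limma, quantile normalization of both arrays, the median probe set, removal of _s_at and _x_at probe sets, and each array left out.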

Additional observations from a re-analysis of the deposited data

How the results depend on the processing

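No paired analysis was possible because both arrays belong to the same group. The use of limma for the call, the median over probe sets, the omission of either array, the omission of _s_at and _x_at probe sets and joint quantile normalization moved no count of a member class or further pathway list by over 1.5 times, and the count of all members ranged from 48 to 49 without 1 array. Marker lists were repeated with limma alone, where the 1 endothelial call, of Cdh5, was lost. A higher limit admits fewer genes by construction. At the 95th percentile of background receptors, the counts fell to 5 Wnt ligands and 1 secretion gene. At the highest background receptor, they fell to 26 members in all, 4 Wnt ligands, 7 receptors and co-receptors, 4 secreted antagonists, 1 R-spondin, 1 secretion gene, 7 other membrane and extracellular regulators, 6 planar polarity genes and 9 target genes. Without _s_at and _x_at probe sets, Wnt3 had none left and Fzd2 was at 10.12. With the median over probe sets, the level of 37 members moved by more than the SD between arrays. Background receptors reach 6.92 for Vmn1r44 and 6.50 for the next. Levels below 6.92 thus lie within the range of background and do not by themselves separate a member from it on these arrays.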
